A study of Mus musculus with 12 samples.

Results

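The genes described here carry out the synthesis, uptake control, intracellular transport and efflux of cholesterol. They were chosen by gene symbol, 33 in all, and 30 of them had a probe set listed under their symbol alone, of 19938 genes measured that way. Where a gene had several such probe sets, the brightest stood for it. Acat2, Nr1h2 and Soat1 had no such probe set and were not analysed here.

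RNA was measured on whole-transcript arrays, 12 in all, from the contused spinal cord of mice, and each array gave 1 log2 level per gene. The 3 groups of 4 arrays each were C57BL/6 wild type, Il1a KO and Il1b KO, the knockouts lacking interleukin-1 alpha or interleukin-1 beta, and the labels give C57BL/6 as the background strain of all of them. All mice were aged 8 to 12 weeks and received a contusion of 50 kdyn, and a 6 mm piece of cord around the lesion was taken 24 h later, so no uninjured cord stands beside these values. Replicates are labelled as biological, with no animal named for any array, and p-values here measure the spread between these arrays, whose number limits the precision.

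Cells build cholesterol from acetyl-CoA through mevalonate, farnesyl diphosphate, squalene and lanosterol. When the membrane of the endoplasmic reticulum is short of cholesterol, SCAP carries the SREBP transcription factors to the Golgi, where they are cut and released to switch on nearly every enzyme of the route, while INSIG proteins hold them back when sterol is plentiful. Cells with a surplus make oxysterols, which activate the LXR receptors and through them the exporters ABCA1 and ABCG1. Nervous tissue makes its own cholesterol, since lipoproteins of the blood do not cross the intact barrier, and oligodendrocytes use large amounts of it for myelin.

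Promoter sequence was examined because the synthesis enzymes deviated together from array to array, as described below. RefSeq windows of GRCm38.p6, from 250 bases before to 50 bases after a start site, were given for 26 of the 33 genes. They were searched on both strands for the SREBP-binding sterol regulatory element written as TCACNCCAC, for the CCAAT box (CCAAT, or ATTGG on the other strand), to which the SREBP partner NF-Y binds, and for the E-box CACGTG. A match describes letters and is not evidence of binding. Only these spellings inside the windows were searched, so a missing match does not show that a gene lacks such an element. The sterol element was found in Hmgcs1 alone of these genes, against 1.44% of 27025 genes with a window and 1.24% of all 32851 windows. The stretch before the Hmgcs1 start site, at chr13:119690101-119690350 on the plus strand, is shown because it holds both kinds of letters, the sterol element 137 bases before the start and the CCAAT box in 3 places, all in capitals, with at least 34 bases between the element and any box.
Hmgcs1: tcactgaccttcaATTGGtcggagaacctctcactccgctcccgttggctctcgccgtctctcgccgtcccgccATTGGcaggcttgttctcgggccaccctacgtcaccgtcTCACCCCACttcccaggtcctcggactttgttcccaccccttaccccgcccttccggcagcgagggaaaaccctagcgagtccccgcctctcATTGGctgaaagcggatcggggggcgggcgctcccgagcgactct

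CCAAT letters were present in the window of 14 of the 14 measured synthesis enzymes that had one, against 41.7% of 15614 measured genes and 37.4% of all windows. The measured enzymes Acat3, Fdps, Fdft1 and Sqle had no window and were not searched. Over all measured members with a window the box was found in 20 of 23, and of the synthesis enzymes only Acat2, which was not measured, had a window without it. The E-box was found in 3 of the 14 enzymes, against 9.5% of measured genes and 7.15% of all windows. The box nearest the start site is shown in capitals for 6 enzymes that recur in the results, each read 5′ to 3′ on the gene's own strand with 20 bases on either side. Mvk lies at chr5:114444235-114444279 (plus strand), Mvd at chr8:122443425-122443469 (minus), Lss at chr10:76531523-76531567 (plus), Cyp51 at chr5:4104702-4104746 (minus), Tm7sf2 at chr19:6067873-6067917 (minus) and Msmo1 at chr8:64733609-64733653 (minus).
Mvk: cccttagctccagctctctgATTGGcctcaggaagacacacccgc
Mvd: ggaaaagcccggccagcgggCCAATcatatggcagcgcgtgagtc
Lss: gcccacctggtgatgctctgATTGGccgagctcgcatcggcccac
Cyp51: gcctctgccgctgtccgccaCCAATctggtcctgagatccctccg
Tm7sf2: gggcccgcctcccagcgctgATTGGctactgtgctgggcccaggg
Msmo1: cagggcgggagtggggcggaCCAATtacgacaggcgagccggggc

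Before any comparison of genotypes, the arrays were checked against their labels. The Il1b level was 6.42 ± 0.183 in the Il1b KO against 7.83 ± 0.161 in wild type and 8.08 ± 0.0946 in the Il1a KO (mean ± SD, n = 4 each). The Il1a level was 4.97 ± 0.0749 in the Il1a KO and 5.87 ± 0.232 in wild type, but it was also 5.10 ± 0.209 in the Il1b KO. Il1a KO array 1 stood apart in sex-linked genes, with Xist at 6.47 against 11.89 to 12.19 in all others and Eif2s3y at 9.15 against 3.65 to 3.94. The tissue carried the defining genes of cord cells at high levels, among them Snap25 of neurons, Gfap of astrocytes and Mbp of myelin, each above the 99th percentile of all genes. In a bulk sample, fewer cells of a type and less RNA per cell cannot be told apart.

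The cholesterol genes differed little between the genotypes, with 1 exception. Acat3, an enzyme that joins acetyl-CoA units to acetoacetyl-CoA at the entry of the mevalonate route, was 1.36-fold lower in the Il1a KO and 1.27-fold lower in the Il1b KO than in wild type. The other 17 measured synthesis enzymes passed no test, and all but Ebp in the Il1a KO had small positive differences from wild type. The exporter gene Abcg1 lay 1.09-fold above wild type in the Il1a KO and 1.10-fold in the Il1b KO without passing. Apart from Acat3, most enzymes were low in wild type array 1 and high in Il1a KO array 1.

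A member was said to pass where its adjusted p, Benjamini-Hochberg over all 19938 genes in limma, was under 0.05. In the Il1a KO against wild type 1 of 30 members passed, where 0.171% of all genes did, and 3 had an unadjusted p under 0.05, where 8.32% of all genes did. Differences were positive in 26 of 30 members with a median of 0.05 on the log2 scale, where 50.2% of all genes were positive. No member had its 4 knockout arrays all above the 4 of wild type, which held for 2.87% of genes, and 1 had them all below, which held for 2.19%.

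In the Il1b KO against wild type 1 of 30 members passed, where 0.813% of all genes did, and 5 had an unadjusted p under 0.05, where 13% of all genes did. Differences were again positive in 26 of 30 members, with a median of 0.07, where 52% of all genes were positive. Abcg1, Mvd and Mvk had all 4 knockout arrays above wild type, 3 of 30 members where 5.06% of genes showed this. Acat3 alone had them all below, where 1.94% of genes did. Both knockouts were set against the same 4 wild-type arrays, so their differences from wild type are not independent of each other.

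**Figure D1:**
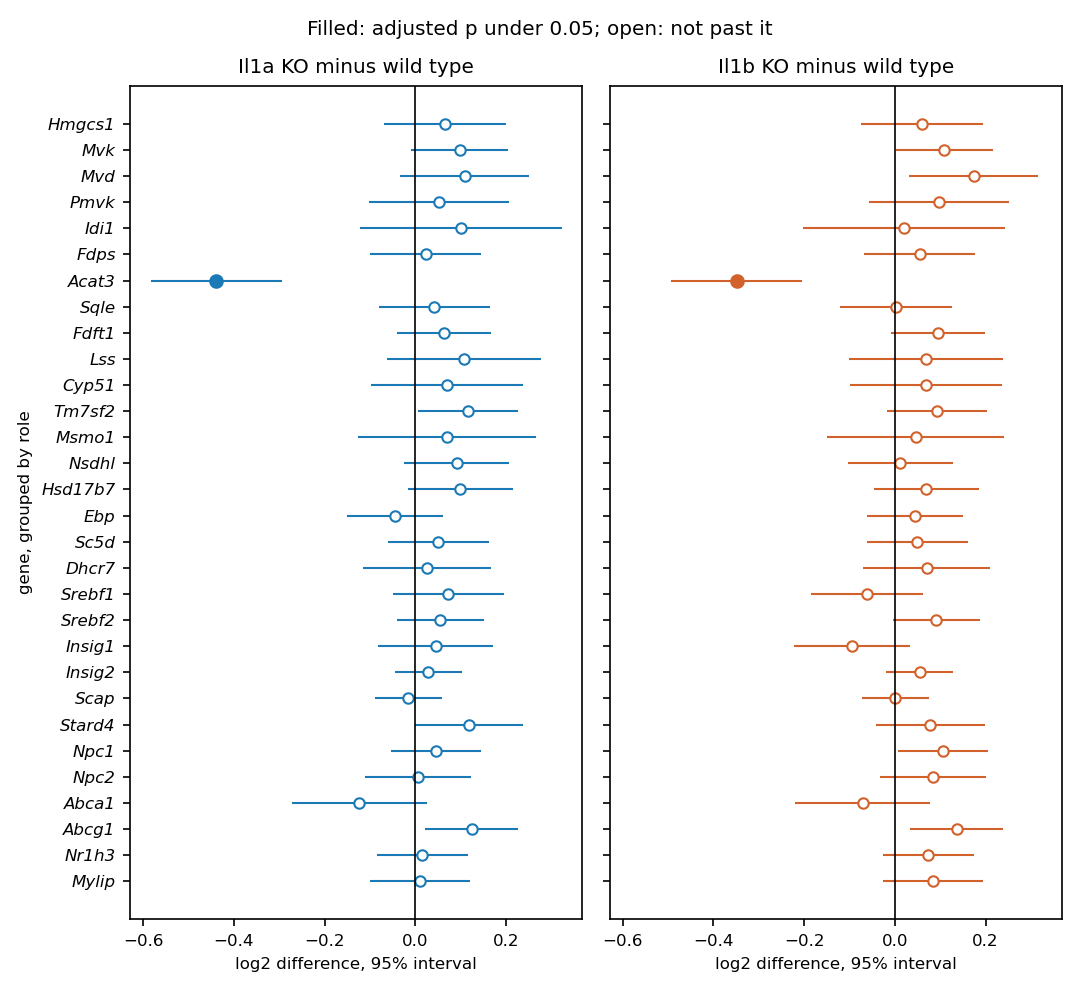
Log2 difference of each of the 30 measured members from wild type in the Il1a KO (left) and the Il1b KO (right), with 95% intervals from limma, 4 arrays per group; filled points have an adjusted p under 0.05. Acat3 is the filled point in each panel, at -0.44 and -0.35, and all other members lie between -0.12 and 0.17.

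The mevalonate steps were represented by 7 of 8 genes. Acat3 read 8.89, 8.81, 8.95 and 8.96 in wild type. The Il1a KO arrays read 8.31, 8.42, 8.48 and 8.65, and the Il1b KO arrays 8.47, 8.59, 8.52 and 8.65. Every knockout array lay below every wild-type array. The difference was -0.44 in the Il1a KO (95% interval -0.58 to -0.29, adjusted p = 0.0163) and -0.35 in the Il1b KO (-0.49 to -0.20, adjusted p = 0.0281). The knockouts differed from each other by -0.09 (-0.23 to 0.05, adjusted p = 0.818).

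The Acat3 call in the Il1a KO ended without wild type array 3 or 4 or without Il1a KO array 1, 2 or 3 (adjusted p 0.0508 to 0.0894), and when only these groups were fitted (adjusted p = 0.0784). In the Il1b KO it ended without wild type array 1, 3 or 4, Il1a KO array 3, or Il1b KO array 1, 2 or 3 (adjusted p 0.0517 to 0.114). With any 1 array left out, whether or not the call held, the difference ran from -0.50 to -0.39 in the Il1a KO and from -0.38 to -0.32 in the Il1b KO. Acat3 lies at chr17:12923830-12940595 (GRCm38.p6), and its near-identical neighbour Acat2 begins 2446 bases further on. Which of them the Acat3 probes read was not tested, so the value is uncertain for Acat3 as such. Of the next 5 measured genes on each side of it, from Mrgprh to Smok2a, none passed in either knockout.

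Mvd, the decarboxylase that ends the mevalonate steps proper, read 8.73, 8.83, 8.61 and 8.86 in wild type. Its levels were 9.01, 8.75, 8.90 and 8.80 in the Il1a KO and 8.91, 8.95, 9.003 and 8.87 in the Il1b KO. The Il1b KO arrays all lay above wild type, the lowest by a narrow margin, while those of the Il1a KO overlapped it. The Il1b KO difference was 0.17 (95% interval 0.03 to 0.32, adjusted p = 0.283).

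Mvk, mevalonate kinase, read 9.31, 9.30, 9.22 and 9.29 in wild type. Its Il1a KO levels were 9.51, 9.35, 9.27 and 9.38 and its Il1b KO levels 9.45, 9.34, 9.38 and 9.39. Here too the Il1b KO arrays lay above wild type without overlap, by 0.11 on average (adjusted p = 0.379). Of the remaining enzymes of these steps, Hmgcs1 (HMG-CoA synthase), Pmvk (phosphomevalonate kinase), Idi1 (isopentenyl diphosphate isomerase) and Fdps (farnesyl diphosphate synthase) differed from wild type by 0.02 to 0.10 in both knockouts and none passed.

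**Figure D2:**
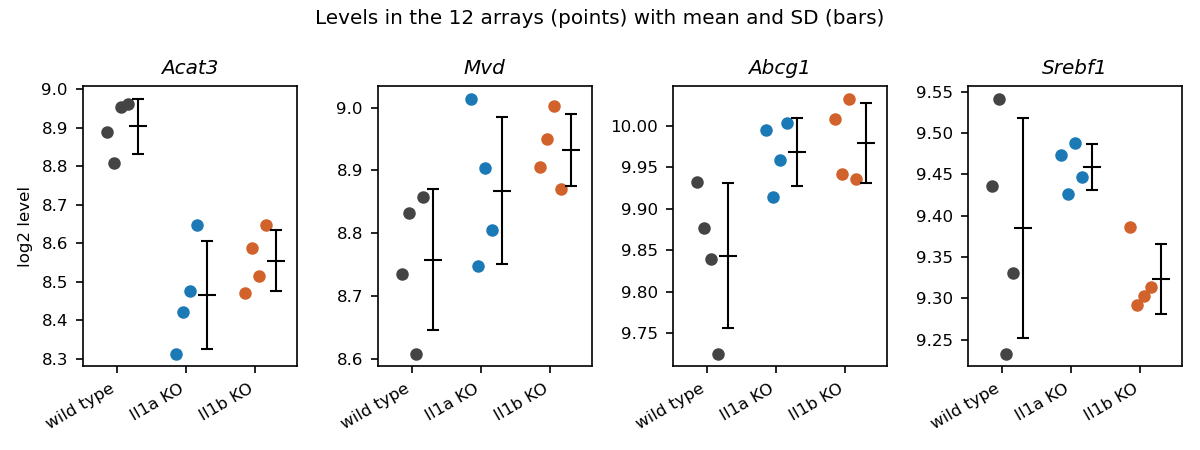
Log2 level of Acat3, Mvd, Abcg1 and Srebf1 in each of the 12 arrays (points), with the mean and SD of each group of 4 (bars); each panel has its own vertical range, so levels are compared within a gene. The Acat3 points of both knockouts lie at 8.65 or below and those of wild type at 8.81 or above, while the Srebf1 points of the knockouts do not overlap each other.

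The squalene to lanosterol steps were measured for all 3 genes. Fdft1, squalene synthase, read 11.73, 11.82, 11.92 and 11.91 in wild type, 11.97, 11.91, 11.89 and 11.85 in the Il1a KO, and 11.90, 11.90, 11.95 and 11.99 in the Il1b KO. The groups overlapped, and the difference of the Il1b KO was 0.10 (adjusted p = 0.424). The other probe set listed for Fdft1 gave 0.02 for the same comparison, so its size depended on the probe set.

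Lss, which closes the ring to lanosterol, read 9.32, 9.65, 9.45 and 9.43 in wild type, 9.70, 9.47, 9.63 and 9.48 in the Il1a KO, and 9.53, 9.37, 9.64 and 9.59 in the Il1b KO. Wild type array 1 was its lowest level and Il1a KO array 1 its highest, and all groups overlapped. Its Il1a KO difference was 0.11 (adjusted p = 0.825). Sqle, squalene epoxidase, differed by 0.04 and by 0.0030.

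The lanosterol to cholesterol steps were measured for all 8 genes, with a median difference of 0.07 in the Il1a KO and 0.06 in the Il1b KO. Tm7sf2, a sterol reductase, had the smallest p of them. It read 8.78, 8.77, 8.61 and 8.70 in wild type, 8.93, 8.77, 8.79 and 8.84 in the Il1a KO, and 8.85, 8.73, 8.82 and 8.83 in the Il1b KO. Il1a KO array 2 (8.766) lay below wild type arrays 1 (8.784) and 2 (8.769), while the other Il1a KO arrays lay above all of wild type. The Il1a KO difference was 0.12 (95% interval 0.0057 to 0.23, adjusted p = 0.563). Cyp51 (lanosterol demethylase), Msmo1 (methylsterol monooxygenase), Nsdhl, Hsd17b7, Sc5d and Dhcr7, the reductase of the last step in one branch, had differences of 0.01 to 0.10 in both knockouts. Ebp, the sterol isomerase, was at -0.04 in the Il1a KO and 0.04 in the Il1b KO.

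Counted together, 16 of 18 enzymes were positive in the Il1a KO and 17 of 18 in the Il1b KO, with medians of 0.07 and 0.06 beside all-gene medians of 0.00033 and 0.0040. The median over the same enzymes varied between arrays of a genotype with an SD of 0.0643, about as large as those differences. Between the knockouts 10 of 18 were positive, with a median of 0.0014.

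Arrays within a group were set against each other because the wild-type and knockout ranges overlapped for nearly all enzymes. Each enzyme's level was taken relative to its mean over the 12 arrays, and the arrays were ranked within their group. Wild type array 1 was the lowest of its group for 10 of 18 enzymes, where it was lowest for 24.7% of all genes, and its median deviation was -0.12. Il1a KO array 1 was the highest of its group for 16 of 18, where it was highest for 24.9% of all genes, and its median deviation was 0.13. Il1b KO array 2 was lowest for 12 of 18 (27% of all genes) and Il1b KO array 3 highest for 11 of 18 (30.7% of all genes), with median deviations of -0.07 and 0.07.

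Several enzymes showed this by name. Msmo1 read 11.11 in wild type array 1 and 11.54, 11.57 and 11.50 in the other wild-type arrays, and Il1b KO array 2 at 11.29 was lowest of its group. Cyp51 read 10.04 in wild type array 1 and 10.30, 10.41 and 10.27 in the others, and its highest level was 10.50 in Il1a KO array 1. Hmgcs1 ranged from 11.57 in wild type array 1 to 11.94 in Il1a KO array 1. Idi1 had the widest range within a group, from 9.95 in wild type array 1 to 10.56 in wild type array 3. For all of them the span of single arrays of 1 genotype exceeded the difference between genotype means, which vary less than single arrays.

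The positive medians moved with these arrays. Without wild type array 1 the enzyme median was 0.02 in both knockouts, with 13 of 18 positive in the Il1a KO and 12 of 18 in the Il1b KO, where all genes were positive in 56.8% and 57.2%. Without Il1a KO array 1 the Il1a KO median was 0.03 with 14 of 18 positive. Without both arrays it was -0.0019 with 9 of 18 positive, where 57.8% of all genes were positive, a choice made after seeing the data. Wild type array 1 was the low array and Il1a KO array 1 the high array for these same enzymes. Leaving them out was therefore bound to lower the median, and the fall is no separate finding. Il1a KO array 1 is also the one whose Xist and Eif2s3y levels set it apart, and the part this has in its enzyme levels was not tested.

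**Figure D3:**
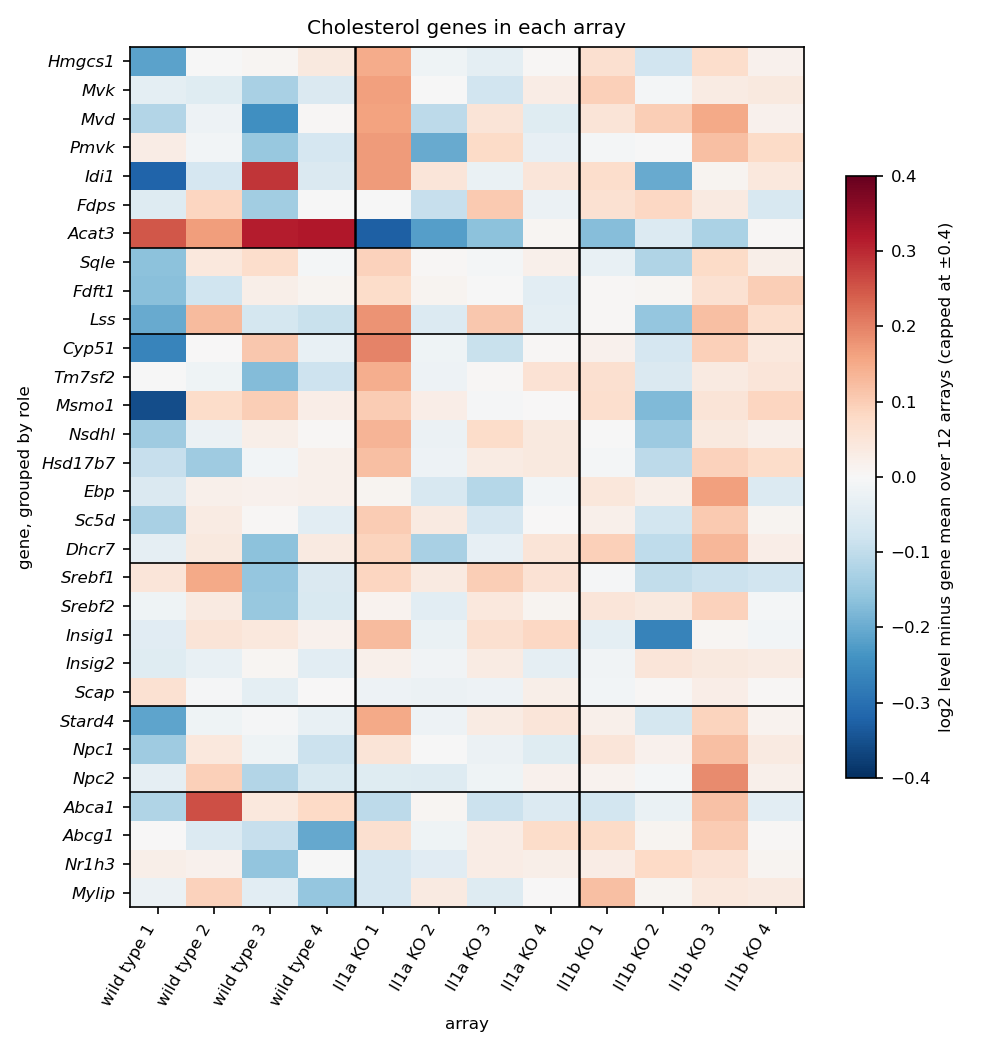
Log2 level of each of the 30 measured members minus that gene's mean over the 12 arrays (colour, limited to ±0.4), with genes grouped by role from synthesis at the top to LXR and efflux at the bottom and vertical lines between genotypes. Wild type array 1 is blue and Il1a KO array 1 red for most synthesis enzymes, and Acat3 runs against both, red in all wild-type arrays.

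Markers of mature oligodendrocytes, the cells that make myelin, were set beside the enzymes. All 10 measured markers had positive differences in both knockouts, with medians of 0.12 and 0.11, and none passed. The mean level of the list was 11.49 to 11.65 in wild type, 11.66 to 11.83 in the Il1a KO and 11.61 to 11.73 in the Il1b KO, and the summed level 15.22 to 15.30, 15.30 to 15.43 and 15.30 to 15.39. Wild type array 1 (11.49) and Il1b KO array 2 (11.61) were the lowest of their groups and Il1a KO array 1 (11.83) and Il1b KO array 3 (11.73) the highest, the same arrays that were extreme for the enzymes. None of the 10 markers was dim, the lowest, Opalin, standing at the 68.3rd percentile of all genes. The 5 precursor markers had a mean level of 9.25 to 9.40 in wild type, 9.40 to 9.58 in the Il1a KO and 9.48 to 9.65 in the Il1b KO. In part the same arrays were extreme for other lists. For astrocyte markers Il1a KO array 1 (11.16) and Il1b KO array 3 (11.18) were highest of their groups. There Il1b KO array 2 (11.14) was lowest. For neuron markers Il1a KO array 1 (11.385) was highest and Il1b KO array 2 (11.294) lowest. For precursor markers Il1a KO array 1 and Il1b KO array 3 were highest. Wild type array 1 was lowest of its group for none of the astrocyte, neuron and precursor lists. It was lowest for endothelium markers (9.725) and for monocyte and macrophage markers (9.087), but not for microglia, neutrophil or Schwann cell markers. For Schwann cell markers Il1a KO array 1 (10.939) and Il1b KO array 3 (11.067) were highest of their groups. The part of any of these cells in the enzyme levels was not tested.

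Markers of tissue other than cord and of blood-borne cells also differed between the arrays. All 4 skeletal muscle markers had negative differences in both knockouts, with medians of -0.16 and -0.20, and none passed. Their mean level was 7.08 to 7.46 in wild type, 7.08 to 7.12 in the Il1a KO and 6.99 to 7.18 in the Il1b KO. Wild type array 1, which was low for the enzymes, had the highest mean of all arrays for muscle (7.46, with wild type array 3 next at 7.43). It was also highest for the 3 measured adipocyte markers (6.50, with wild type array 4 next at 6.46). Wild type arrays 3 and 4 were not low for the enzymes, with median deviations of 0.0075 and 0.0018. Il1b KO array 2, also low for the enzymes, read 7.09 for muscle, inside the range of its group. For adipocyte markers it read 6.39, the highest of its group. The 6 neutrophil markers were negative in 6 of 6 in the Il1a KO and 5 of 6 in the Il1b KO, where Ly6g passed, with mean levels of 7.81 to 8.16 in wild type, 7.37 to 7.74 in the Il1a KO and 7.24 to 7.99 in the Il1b KO. The part of any of these tissues or cells in the enzyme levels was not tested.

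**Figure D4:**
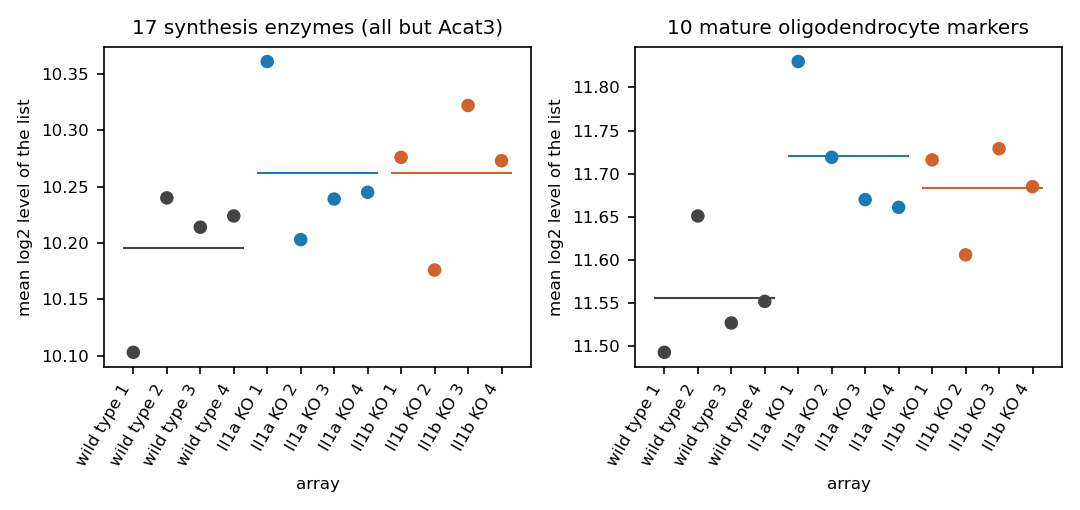
Mean log2 level per array (points) of the 17 measured synthesis enzymes other than Acat3 (left) and of the 10 mature oligodendrocyte markers (right), with horizontal lines at the group means. In both panels wild type array 1 is the lowest of all arrays and Il1a KO array 1 the highest, at 10.10 and 10.36 for the enzymes and 11.49 and 11.83 for the markers.

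Of the genes that control SREBP, none of 5 passed in any comparison. Srebf1, whose product drives mainly fatty acid synthesis genes, read 9.44, 9.54, 9.23 and 9.33 in wild type, 9.47, 9.43, 9.49 and 9.45 in the Il1a KO, and 9.39, 9.29, 9.30 and 9.31 in the Il1b KO. All Il1a KO arrays lay above all Il1b KO arrays, while wild type spanned both. The Il1a KO exceeded the Il1b KO by 0.14 (95% interval 0.01 to 0.26, adjusted p = 0.590), and the differences from wild type were 0.07 and -0.06.

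Insig1, itself a sterol-responsive SREBP target, read 11.31, 11.41, 11.40 and 11.38 in wild type, 11.49, 11.33, 11.42 and 11.44 in the Il1a KO, and 11.32, 11.09, 11.37 and 11.35 in the Il1b KO. It was named for its small unadjusted p between the knockouts, with a difference of 0.14 (adjusted p = 0.596) and Il1b KO array 2 far below the rest. Srebf2, the regulator of the synthesis enzymes, read 10.65, 10.70, 10.51 and 10.60 in wild type, 10.68, 10.62, 10.71 and 10.68 in the Il1a KO, and 10.71, 10.70, 10.76 and 10.66 in the Il1b KO. Its groups overlapped, with an Il1b KO difference of 0.09 (adjusted p = 0.407). Scap, the escort of SREBP, and Insig2 had differences from wild type of -0.02 to 0.05.

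Between the 2 knockouts no member passed in limma, where 0.652% of all genes did. Srebf1 and Insig1 were the 2 with an unadjusted p under 0.05, and weighting the arrays by quality also gave 0. Srebf1 was the 1 member whose Il1a KO arrays all lay above those of the Il1b KO, which held for 2.55% of genes, and none lay all below, which held for 4.69%. Of 30 members 13 were higher in the Il1a KO, where 47.3% of all genes were.

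Intracellular transport was measured for Stard4, Npc1 and Npc2. Stard4, a soluble carrier of sterol between membranes, read 8.76, 8.95, 8.96 and 8.94 in wild type, 9.12, 8.94, 8.998 and 9.01 in the Il1a KO, and 8.98, 8.89, 9.05 and 8.98 in the Il1b KO. Wild type array 1 was low and Il1a KO array 1 high, as for the enzymes, and the groups overlapped. Its Il1a KO difference was 0.12 (adjusted p = 0.609).

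Npc1, the membrane protein that lets cholesterol leave the lysosome, read 11.09, 11.27, 11.21 and 11.14 in wild type, 11.28, 11.23, 11.20 and 11.18 in the Il1a KO, and 11.28, 11.25, 11.35 and 11.27 in the Il1b KO. The Il1b KO difference was 0.11 (95% interval 0.0079 to 0.21, adjusted p = 0.348), with wild type array 2 inside its range. Npc2, its soluble partner, differed by 0.0062 and 0.08.

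The LXR, uptake and efflux genes were Nr1h3 (LXR alpha), Mylip (a ligase that removes lipoprotein receptors), Abca1 and Abcg1. Abcg1 read 9.93, 9.88, 9.84 and 9.73 in wild type, 9.996, 9.91, 9.96 and 10.004 in the Il1a KO, and 10.01, 9.94, 10.03 and 9.94 in the Il1b KO. Il1b KO arrays lay above wild type without overlap, and those of the Il1a KO overlapped only wild type array 1. Abcg1 differed by 0.12 in the Il1a KO (95% interval 0.02 to 0.23, adjusted p = 0.465) and 0.14 in the Il1b KO (0.03 to 0.24, adjusted p = 0.25). Weighting the arrays by quality gave wild type array 4 a weight of 2.86 and the other wild-type arrays 0.327 to 0.574. The Abcg1 differences moved to 0.19 (adjusted p = 0.0462) and 0.20 (adjusted p = 0.0251), so that Abcg1 then passed in both. With these weights 306 of all 19938 genes passed in the Il1a KO and 1145 in the Il1b KO, against 34 and 162 without them.

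Abca1, the exporter that loads apolipoproteins, did not share the sign of Abcg1. It read 9.56, 9.94, 9.72 and 9.76 in wild type, 9.58, 9.69, 9.59 and 9.63 in the Il1a KO, and 9.61, 9.65, 9.80 and 9.64 in the Il1b KO. Wild type held both its lowest and its highest level. The differences were -0.12 (adjusted p = 0.712) and -0.07 (adjusted p = 0.712). Nr1h3 and Mylip differed by 0.01 to 0.02 in the Il1a KO and by 0.07 to 0.08 in the Il1b KO.

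Other genes of cholesterol handling, a list of 52 of which 45 were measured, gave few calls either. In the Il1a KO the limma test called none of the 45, beside 0.171% of all genes, and for 7 the unadjusted p was under 0.05, beside 8.32%. Differences were positive in 26 of 45, beside 50.2% of all genes, with a median of 0.0077. In the Il1b KO 1 of 45 passed, lower, beside 0.813% of all genes, and for 8 the unadjusted p was under 0.05, beside 13%. There 35 of 45 were positive, beside 52% of all genes, with a median of 0.03. That gene was Dhdds, which acts on the dolichol side branch of the mevalonate route rather than on cholesterol itself.

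Dhdds read 10.08, 10.17, 10.09 and 10.08 in wild type, 10.18, 10.10, 10.15 and 10.03 in the Il1a KO, and 9.90, 9.88, 9.87 and 9.84 in the Il1b KO. All Il1b KO arrays lay below all others. Its difference from wild type was -0.23 in the Il1b KO (adjusted p = 0.0158) and 0.0077 in the Il1a KO (adjusted p = 0.993). The knockouts differed from each other by 0.24 (adjusted p = 0.0135). The first of these calls ended without Il1b KO array 3 or 4 (adjusted p 0.0522 and 0.0667) or with only these groups fitted (0.0537), and the last without Il1a KO array 1 or 3 or Il1b KO array 4 (adjusted p 0.0593 to 0.0648).

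Abcg4, an exporter of neural cells and a relative of Abcg1, read 9.84, 9.90, 9.86 and 9.86 in wild type, 10.05, 9.95, 10.004 and 10.05 in the Il1a KO, and 10.04, 10.04, 10.04 and 10.001 in the Il1b KO. Both knockouts lay above wild type without overlap and neither passed, at 0.15 (adjusted p = 0.181) and 0.17 (adjusted p = 0.0538). Abcg4 passed with array weights in the Il1a KO (adjusted p = 0.045) and the Il1b KO (0.0199), and in the latter also with an intensity trend (0.0172) or without the dimmest genes (0.029). Erg28, a scaffold of the late synthesis enzymes, showed the same order, at 0.16 (adjusted p = 0.320) and 0.17 (adjusted p = 0.123). With an intensity trend the latter adjusted p was 0.0331. Over all genes, array weights called 306 in the Il1a KO and 1145 in the Il1b KO. In the Il1b KO the intensity trend called 309 and the filter on dim genes 215, beside 162 in the main fit. Tspo, a mitochondrial cholesterol-binding protein abundant in activated microglia and macrophages, read 9.30, 9.43, 9.19 and 9.30 in wild type, 8.90, 9.10, 9.11 and 9.17 in the Il1a KO, and 9.15, 9.23, 9.26 and 9.03 in the Il1b KO. The Il1a KO arrays lay below wild type and those of the Il1b KO overlapped it, at -0.23 (adjusted p = 0.320) and -0.14 (adjusted p = 0.427). The 5 monocyte and macrophage markers had a mean level of 9.09 to 9.21 in wild type, 8.87 to 9.03 in the Il1a KO and 8.87 to 9.22 in the Il1b KO, so that they too overlapped wild type in the Il1b KO, and their part in the Tspo level was not tested.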

How the data were processed

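Levels were log2 values per probe set and array as the authors deposited them. The submitters' processing notes name GCOS 1.4, RMA, limma and Partek without saying what each did. That the values are RMA summaries was inferred from this list of tools, from their range, 2.97 to 14.4, and from near-equal array medians, 8.16 to 8.20. RMA gives all arrays 1 distribution, so an overall shift in RNA amount would not show, and it compresses differences of dim genes. For the array annotation a genome build is not given in the sources used here.

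Exactly 1 gene symbol was listed for 21789 of 35557 probe sets, and the brightest per gene gave 19938 genes. limma 3.58.1 in R 4.3.3 fitted 1 mean per genotype over all 12 arrays, two-sided, without a trend, with Benjamini-Hochberg adjustment over all genes of a comparison. The fit was also run on simulated data with known changes in independent genes. Arrays in which many genes deviate together were not simulated.

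The members, lists and alternatives were chosen with earlier results of these data known. Values per array are given for members that passed, whose arrays did not overlap, or with the smallest p of their role in a knockout. Insig1, Abca1, Msmo1, Cyp51, Hmgcs1 and Idi1 were added after their values were seen. Of the other genes, those that passed and the 3 with the smallest p in each knockout are named. Alternatives were renormalization, centring, an intensity trend, a filter on dim genes, averaged probe sets, fewer groups, array weights, a replicate block and leaving out arrays. RefSeq promoters were matched by symbol.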

Additional observations from a re-analysis of the deposited data

Results flagged for a closer look

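Of 90 sets of 4 arrays (30 members in 3 genotypes), 8 held 1 array far from the other 3 by Dixon's 95% criterion. Chance flags about 1 in 20 such sets. Wild type array 1 was the low array in 4 of them. There Hmgcs1 read 11.57 with the nearest array at 11.79, Msmo1 11.11 with the nearest at 11.50, Ebp 10.27 with the nearest at 10.34 and Stard4 8.76 with the nearest at 8.94. Msmo1 was also low in Il1b KO array 2, at 11.29 against 11.52. Nr1h3 was low in wild type array 3, at 7.30 against 7.46. High arrays were Npc2 in Il1b KO array 3, at 10.01 against 9.84, and Scap in Il1a KO array 4, at 10.003 against 9.96.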

How the results depend on the processing

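The number of members that passed in the Il1a KO was 1 and became 0 when only the groups compared were fitted, 2 with array weights, 0 to 1 with single arrays left out, and 0 without wild type array 1 and Il1a KO array 1 together. In the Il1b KO it was 1, 2 with array weights, and 0 to 1 with single arrays left out. Between the knockouts it was 0 under every alternative. The enzyme median of the Il1a KO was 0.07, ran from 0.02 to 0.09 with single arrays left out, and was -0.0019 without both arrays. That of the Il1b KO ran from 0.02 to 0.10. The fall without both arrays was set by leaving out the low wild-type and the high Il1a KO array for these enzymes. Apart from this, the cause of these changes was not tested, and fits that leave out arrays also hold fewer samples. No sign of a called member changed. Same-numbered arrays had correlations of deviations from -0.374 to 0.441. Arrays of different numbers were not compared, so these values cannot tell whether the numbers pair the arrays. A replicate block left the counts at 1, 1 and 0.

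Over all genes, the count in the Il1a KO was 34, with 15 under the fit of only the groups compared, 74 with an intensity trend and 306 with array weights. In the Il1b KO it was 162, with 85, 309 and 1145. Between the knockouts it was 130, and 244 with array weights. With 4 arrays a group, the median half-width of a member's 95% interval was 0.118 on the log2 scale, which limits the size of difference these arrays can show.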
